A study of Homo sapiens with 6 samples.

Results

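Among the 29122 gene rows of the count table of A549 cells, 196 long intergenic noncoding RNA (lincRNA) rows formed the set described here. They were the lincRNA rows, by the gene type the deposited table gives, whose CPM (a gene's counts divided by its library's total, on a common scale) averaged at least 2 over the 6 libraries, leaving out MALAT1, NEAT1, PVT1, TUG1, GAS5, ZFAS1, DANCR, OIP5-AS1, EPB41L4A-AS1, KCNQ1OT1 and symbols beginning with SNHG. There were 3971 lincRNA rows, of which 203 reached that level and 7 of those were left out by name. The members were chosen by their CPM averaged over both groups, so a lincRNA could pass through the group in which it was high. RP11-54O7.17, AC083843.1, RP1-27K12.2 and CRNDE passed in this way through control libraries, and CTC-444N24.8, LINC00337 and FTX through depleted libraries. The same holds for any other member below whose mean in either group is under the level, and its rise or fall carries that limit. The rows just inside the level were TINCR at 2.02, CTC-459F4.3 at 2.03 and RP11-401P9.4 at 2.04 CPM, and those just outside it were LINC00313 at 1.996, RP11-1007O24.3 at 1.99 and LINC00115 at 1.98 CPM.

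The 3 BCLAF1-depleted libraries came from A549, an epithelial cell line of a human lung carcinoma, stably transduced with a lentiviral short hairpin RNA (shRNA) against BCLAF1, a nuclear protein of transcription and RNA processing. The 3 control libraries came from the same line carrying a hairpin against firefly luciferase, a gene that human cells lack. The source names of the labels spell the line A649, and the titles write si where the protocol describes hairpins, so the cell line field and the protocol were followed. Both groups therefore share lentiviral transduction, and the labels name neither the number of BCLAF1 hairpins, nor the time after transduction, nor whether cells were cloned. The series title names premature senescence, autophagy flux and MED23, a subunit of Mediator, and the comparison asks which RNAs differ once BCLAF1 is lowered. Nothing in the labels says that replicates were separate cultures, so p-values measure the spread between these samples, which may be technical.

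BCLAF1 itself was at 39.0, 35.7 and 53.1 CPM in BCLAF1-depleted libraries, against 211, 199 and 203 CPM in control libraries (log2 fold change -2.26 ± 0.16, adjusted p = 2.31e-05). Library totals ran from 33409158 to 43928927 counts, and all 196 lincRNAs had counts in all 6 libraries. Of 8 listed epithelial markers KRT8, KRT18, KRT7, CDH1 and EPCAM were expressed, with KRT8 averaging 16145 CPM in BCLAF1-depleted and 16030 CPM in control libraries. CLDN7, CLDN4 and KRT19 were low, at 0.985, 0.479 and 0.616 CPM in BCLAF1-depleted libraries, against 2.004, 0.418 and 0.280 CPM in control libraries. No listed leukocyte marker averaged above 1.10 CPM in BCLAF1-depleted or 0.835 CPM in control libraries, and PTPRC, the pan-leukocyte marker, averaged 0.0486 and 0.0226 CPM there. Of 6 fibroblast markers, COL1A1 was the highest at 9.89 CPM in BCLAF1-depleted and 17.7 CPM in control libraries. Here and below, CPM values are scaled by TMM (a trimmed mean that sets libraries to a common composition), each log2 fold change is BCLAF1-depleted over control with its standard error, and adjusted p-values are from edgeR's quasi-likelihood test with Benjamini-Hochberg adjustment over all 15907 genes tested. A gene was called at an adjusted p under 0.05.

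LincRNAs are RNA polymerase II transcripts without a long reading frame, mostly capped, spliced and polyadenylated like mRNAs but on average less abundant and less stable. Some act in trans, as NORAD does by binding the Pumilio proteins in the cytoplasm. Others act where they are made, or are the host transcripts from which microRNAs are cut. Many start back to back with a coding gene from a shared promoter, and many are trimmed or degraded by the nuclear exosome. Libraries made by oligo(dT) selection see the polyadenylated part of this class.

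The word intergenic held for only part of the set. Of the 190 lincRNAs that matched GENCODE release 29 by identifier, on build GRCh38 as in the deposited data, 168 were still typed lincRNA there. A further 6 were typed protein coding, among them RP11-785H5.1 (SMIM10L1), LINC00998 (SMIM30), LINC01207 (SMIM31), NCBP2-AS2 and TINCR. Transcribed unprocessed pseudogenes numbered 6 and transcribed processed ones 2. The gene body overlapped that of a coding gene on the opposite strand for 30 and on the same strand for 12. Exons overlapped those of a gene on the opposite strand for 58 and on the same strand for 30, and 118 had no exon overlap with any gene. The labels do not say whether reads were assigned by strand, so reads in opposite-strand exon overlaps cannot be assigned with certainty. Starts lay within 1 kb of the start of a coding gene on the opposite strand for 47 lincRNAs, an arrangement called head to head below. Direction was not required to point away, so pairs whose bodies overlap at their starts, such as MIR22HG with WDR81, are included.

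The lincRNA with the most counts, LINC00657, is NORAD (chr20:36045622-36050960, minus strand, 1 exon of 5339 bases). Its transcript carries the element UGUANAUA, bound by Pumilio proteins, and the stretches below show how the same core recurs along it. They are from the GENCODE release 29 transcript, 5′ to 3′, named by the first base of the element counted from 1 at the transcript's 5′ end, with the element in capitals and 8 bases on each side.
NORAD element at 761: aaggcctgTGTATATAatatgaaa
NORAD element at 1140: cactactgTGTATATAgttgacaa
NORAD element at 1442: cttatctgTGTATATAgtgtacat
NORAD element at 2972: ccctactgTGTATATAgcggacaa
NORAD element at 3275: ctgtgctgTGTATATAgtgtatat
NORAD element at 3593: tgctactgTGTATATAatggaaaa
NORAD element at 4599: agcctattTGTAAATAcctttgtt
The search for TGTANATA on the transcript strand found 15 elements in LINC00657, or 2.81 per kb. HCG11 held 16, also 2.81 per kb, and FTX with 7 came next. At least 1 element was present in the longest transcript of 33 of 190 lincRNAs (17.4%) and of 6449 of 28362 genes (22.7%). As many as in LINC00657 were present in 6 of those 28362 genes.

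Promoter windows of 300 bases (250 before and 50 after the RefSeq start, build GRCh38.p14) are shown for a head-to-head pair that rose together, for a head-to-head pair that moved apart, and for LINC01133 and LUCAT1, both among the largest rises. For the pairs, read on the coding gene's strand, capitals mark the bases between the GENCODE start of the lincRNA and the RefSeq start of the coding gene, 70 bases for CTD-2538C1.2 and NUDT19 and 148 bases for TP53TG1 and CROT. For LINC01133 the capitals mark CCAAT, and for LUCAT1 they mark TGANTCA, the AP-1 type motif.
CTD-2538C1.2 and NUDT19 (chr19:32691571-32691870, plus strand): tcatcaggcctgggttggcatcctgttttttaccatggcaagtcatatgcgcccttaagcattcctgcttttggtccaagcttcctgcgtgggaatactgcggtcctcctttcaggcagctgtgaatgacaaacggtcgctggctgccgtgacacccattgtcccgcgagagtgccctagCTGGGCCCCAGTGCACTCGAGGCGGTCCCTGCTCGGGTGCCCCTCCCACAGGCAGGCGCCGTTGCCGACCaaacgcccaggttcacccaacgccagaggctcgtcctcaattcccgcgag
TP53TG1 and CROT (chr7:87345414-87345713, plus strand): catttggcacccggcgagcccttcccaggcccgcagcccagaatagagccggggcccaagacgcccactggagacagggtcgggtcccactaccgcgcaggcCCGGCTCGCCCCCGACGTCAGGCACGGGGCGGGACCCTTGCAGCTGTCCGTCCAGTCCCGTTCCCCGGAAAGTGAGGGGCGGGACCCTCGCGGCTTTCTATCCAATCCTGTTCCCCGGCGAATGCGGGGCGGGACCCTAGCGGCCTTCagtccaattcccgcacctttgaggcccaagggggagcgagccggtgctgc
LINC01133 (chr1:159960974-159961273, plus strand): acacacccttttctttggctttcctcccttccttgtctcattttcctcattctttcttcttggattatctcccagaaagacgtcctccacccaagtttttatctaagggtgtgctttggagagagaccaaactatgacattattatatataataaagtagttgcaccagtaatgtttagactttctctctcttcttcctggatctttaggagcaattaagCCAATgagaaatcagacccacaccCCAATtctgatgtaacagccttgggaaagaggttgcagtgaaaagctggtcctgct
LUCAT1 (chr5:91314353-91314652, minus strand): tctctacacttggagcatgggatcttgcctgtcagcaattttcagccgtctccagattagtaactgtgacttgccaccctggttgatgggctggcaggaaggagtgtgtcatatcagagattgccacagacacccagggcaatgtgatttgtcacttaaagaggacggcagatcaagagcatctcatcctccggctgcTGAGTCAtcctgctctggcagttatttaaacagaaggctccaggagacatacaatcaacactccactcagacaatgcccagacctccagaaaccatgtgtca
RefSeq starts were matched for 67 lincRNAs, within 2000 bases of the GENCODE start where there was one. LINC00473, called lower and holding GGGCGG, had no GENCODE start to check against. The motifs were searched on both strands. GGGCGG, the GC box, was found in 37 of the 67 windows (55.2%), against 45.0% of all 35116 promoters and 56.3% of protein-coding ones. It was in 9 of 25 called higher, 6 of 8 called lower and 22 of 34 not called, a split that was not tested. CCAAT was found in 28 (41.8%, against 34.6% of all promoters), TATAAA in 5 (7.46%, against 11.5%) and TGANTCA in 5 (7.46%, against 7.71%). CACGTG was found in 4 (5.97%, against 7.26%) and TGACGTCA, which contains no TGANTCA, in 2 (2.99%, against 1.85%). Median GC content was 65.7% over the 67 windows and 58.7% over all promoters.

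Host transcripts of microRNAs made up 11 of the set, counting lincRNAs with a microRNA gene inside their body on the same strand. Of these, 3 were called higher and 1 lower, against 17.8% and 18.0% of all tested genes, and the 3 rises were not called when libraries were scaled by their totals alone. The mature sequences below, from RefSeq (GRCh38.p14), show that 3 of the hosts carry microRNAs with the let-7 seed and 1 carries the miR-29 seed. Capitals mark the seed, bases 2 to 8.
hsa-let-7a-5p: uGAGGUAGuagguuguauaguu
hsa-let-7b-5p: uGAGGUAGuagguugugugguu
hsa-let-7i-5p: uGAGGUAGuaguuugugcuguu
hsa-miR-4458: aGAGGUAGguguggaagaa
hsa-miR-29c-3p: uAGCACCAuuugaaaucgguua
hsa-miR-29b-3p: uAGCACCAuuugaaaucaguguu
MIRLET7BHG holds let-7a and let-7b, RP11-631N16.2 holds let-7i, MIR4458HG holds miR-4458, and C1orf132 (MIR29B2CHG) holds miR-29b and miR-29c. Values below are of the host transcripts, not of mature microRNAs, which were not measured.

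In BCLAF1-depleted cells the set as a whole leaned upward, while its most abundant member, NORAD, fell. Of the 196 lincRNAs, 63 (32.1%) were called higher and 23 (11.7%) lower, against backgrounds of 17.8% and 18.0% of all tested genes. Together 43.9% of the set was called, against 35.8% of all tested genes. The median log2 fold change was 0.26 over the set and 0.02 over all tested genes. All 196 passed the low-count filter, because the level of the rule lies above it. With that level set in control libraries alone, 196 lincRNAs passed, of which 57 were called higher and 25 lower, with a median of 0.21. Depleted and control libraries were fully separated for 104 lincRNAs (53.1%), 74 of them higher and 30 lower, against 51.9% of all tested genes. Changes of at least 2-fold that passed the test numbered 28 higher and 7 lower, against 6.05% and 5.14% of all tested genes. Without BCLAF1-depleted replicate 1 the set had 83 called higher and 28 lower, against 23.0% and 25.8% of all genes tested in that fit. Without replicate 2 it had 44 and 20, against 12.3% and 12.7%, and without replicate 3 it had 48 and 23, against 15.6% and 15.2%. Without control replicate 1 it had 39 and 15, against 8.60% and 9.53%, without control replicate 2 it had 38 and 16, against 8.51% and 9.57%, and without control replicate 3 it had 38 and 15, against 9.37% and 10.3%.

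**Figure D1:**
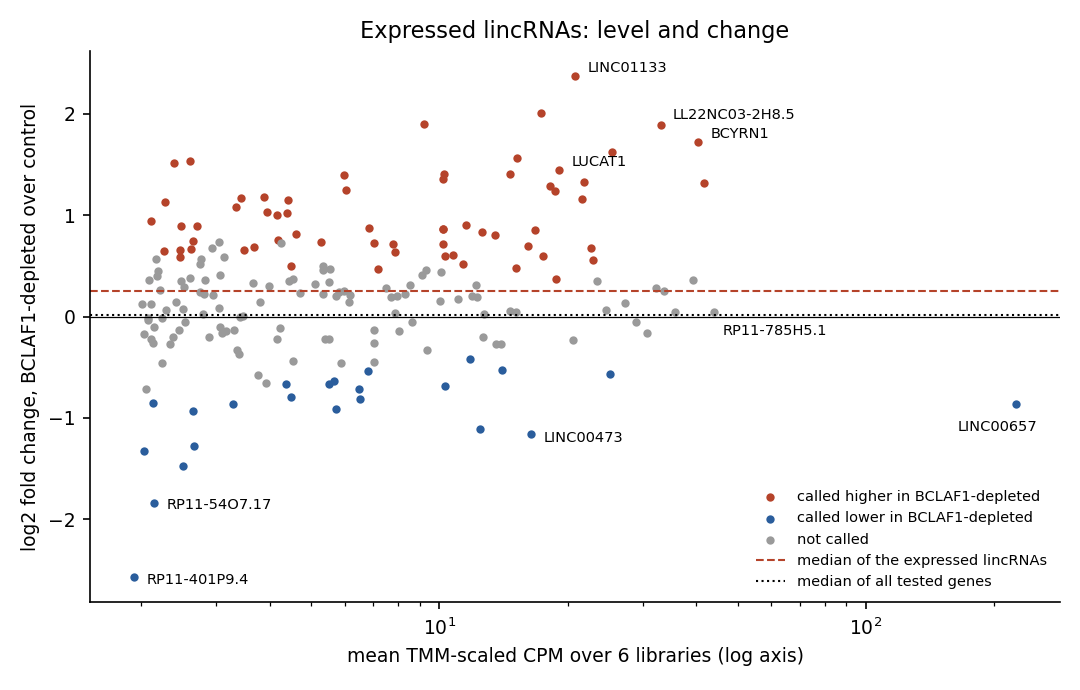
Log2 fold change (BCLAF1-depleted over control) of the 196 expressed lincRNAs against their mean TMM-scaled CPM over 6 libraries on a log axis, coloured by the call of the quasi-likelihood test. The dashed line marks the median of the set at 0.26 and the dotted line that of all tested genes at 0.02, with 63 lincRNAs called higher, 23 called lower, and LINC00657 far to the right below 0.

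The split depended on how libraries were scaled. With library totals alone the set had 37 called higher and 31 lower, and all tested genes had 1283 (8.07%) higher and 3662 (23.0%) lower. That scaling moved the median of all tested genes to -0.21 and that of the set to 0.03, and the median of the set was above that of all tested genes under either scaling. With the deposited FPKM, as log2(FPKM + 1), the set had 33 higher and 36 lower and its median was -0.03, against 1131 higher and 4453 lower over all genes. Calls in all 19 settings run held for 30 of the 63 lincRNAs called higher and 15 of the 23 called lower. The same count was not made over all tested genes, so these numbers have no background to be read against.

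Protein-coding rows at the same level of 2 CPM numbered 11266, with 1984 called higher and 2418 lower (median log2 fold change -0.03). Antisense rows at that level numbered 270, with 86 called higher and 14 lower (median 0.30). LincRNA rows below the level gave 649 tested genes with 112 called higher and 42 lower (median 0.25). Of the rows left out by name, 8 were tested and 5 called higher.

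The depleted libraries varied more among themselves than the controls. The coefficient of variation of a lincRNA over 3 libraries had a median of 20.5% in BCLAF1-depleted and 8.85% in control libraries, and it was larger in the depleted libraries for 169 of 196. BCLAF1-depleted replicate 1 was the depleted library closest to the control mean for 52 of the 63 lincRNAs called higher and for 11 of the 23 called lower. The median log2 difference from the control mean over the set was 0.07, 0.29 and 0.27 in BCLAF1-depleted replicates 1, 2 and 3. Mitochondrially encoded genes took 11.4%, 10.5% and 19.3% of counts in BCLAF1-depleted replicates 1, 2 and 3, against 10.7%, 11.0% and 11.1% in control replicates, and beyond the fit without replicate 3 given above and the share without them given below, their part in the results was not tested.

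NORAD, which binds and sequesters Pumilio proteins and is known in human cells for its part in keeping chromosome number stable, was the lincRNA with the most counts and fell in BCLAF1-depleted cells. It was at 199, 137 and 140.5 CPM in BCLAF1-depleted libraries, against 278, 298 and 293 CPM in control libraries (log2 fold change -0.87 ± 0.16, adjusted p = 0.00392). All 3 depleted libraries lay below all 3 controls, with replicate 1 closest to them. Per length, it averaged 24.0 ± 8.53 FPKM, a level corrected for transcript length and library size, in BCLAF1-depleted and 52.4 ± 2.01 FPKM in control libraries (SD, n = 3 each), the highest FPKM of the set in controls. In depleted libraries RP11-329L6.2, a spliced RNA of 278 bases that GENCODE release 29 names SNHG25, was highest at 41.2 ± 8.13 FPKM, against 19.6 ± 5.53 FPKM in controls. The rule used deposited symbols, so this RNA stayed in although symbols beginning with SNHG were left out. SNORA50C, a small nucleolar RNA gene on the same strand, shares 47.8% of its exon bases, so its count is uncertain.

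HCG11, the other lincRNA rich in UGUANAUA elements, was at 6.47, 6.60 and 7.03 CPM in BCLAF1-depleted libraries, against 6.88, 7.49 and 7.71 CPM in control libraries (log2 fold change -0.14 ± 0.14, adjusted p = 0.454). Its groups overlapped and it was not called, and its direction turned to 0.07 after correction for GC content and length.

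The set as a whole took 0.186%, 0.203% and 0.190% of library counts in BCLAF1-depleted replicates 1, 2 and 3, against 0.186%, 0.190% and 0.194% in control replicates. The means of 0.193 ± 0.00909% in BCLAF1-depleted and 0.190 ± 0.00440% in control libraries (SD, n = 3 each) did not differ beyond the spread (two-sided exact permutation test, p = 0.8). Without counts of mitochondrially encoded genes the set took 0.224 ± 0.0128% in BCLAF1-depleted and 0.213 ± 0.00542% in control libraries, a difference of 0.0106 percentage points (two-sided exact permutation test, p = 0.3). NORAD made up 11.3%, 6.33% and 5.89% of the set's counts in depleted replicates 1, 2 and 3, against 16.1%, 16.9% and 16.5% in controls. Without NORAD, a sum chosen after seeing the data, the set took 0.178 ± 0.0127% in BCLAF1-depleted and 0.159 ± 0.00333% in control libraries (two-sided exact permutation test, p = 0.1, the smallest that 3 against 3 libraries allow). Without BCLAF1-depleted replicate 2 the difference of the whole set was -0.00229 percentage points, against 0.00285 with all 6 libraries. In bulk RNA, fewer cells making an RNA and less of it per cell cannot be told apart.

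**Figure D2:**
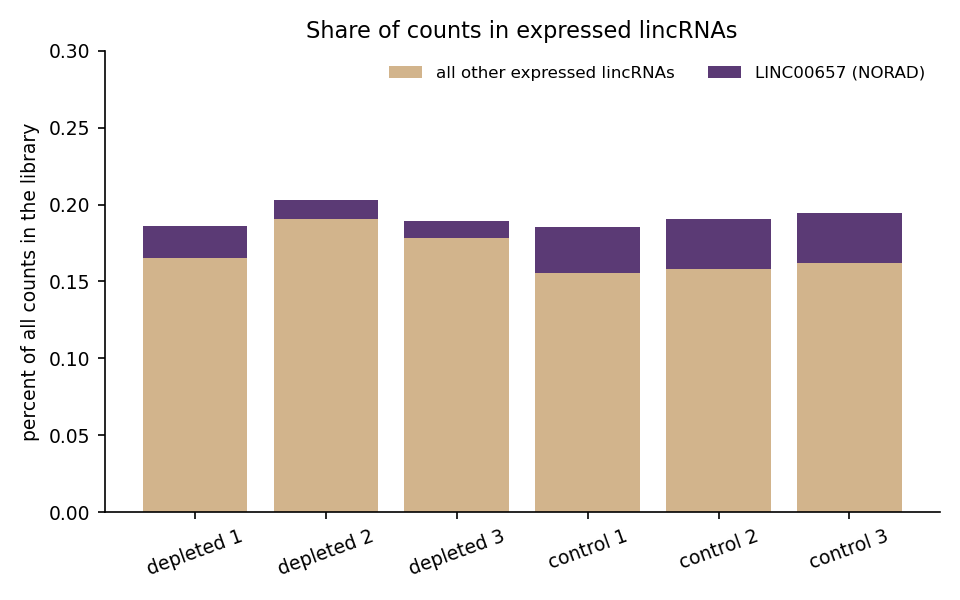
Percent of all counts that fell in the 196 expressed lincRNAs in each library, BCLAF1-depleted replicates on the left and control replicates on the right, with LINC00657 (NORAD) stacked on the rest. The stack is 0.186% to 0.203% high in depleted and 0.186% to 0.194% in control libraries, and the NORAD part is thinner in the depleted libraries.

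Of the 7 other lincRNAs with the highest mean CPM, RP11-54H7.4 and BCYRN1 were called. RP11-54H7.4 was at 39.8, 49.1 and 90.0 CPM in BCLAF1-depleted libraries, against 27.0, 23.4 and 21.5 CPM in control libraries (log2 fold change 1.31 ± 0.26, adjusted p = 0.00485), with no overlap. RP11-785H5.1, now annotated as the small protein gene SMIM10L1, was at 41.6, 44.9 and 47.7 CPM in BCLAF1-depleted libraries, against 41.1, 43.8 and 45.5 CPM in control libraries (log2 fold change 0.04 ± 0.11, adjusted p = 0.795). LINC00467 was at 30.8, 46.3 and 55.3 CPM in BCLAF1-depleted libraries, against 33.6, 35.3 and 34.5 CPM in control libraries (log2 fold change 0.36 ± 0.18, adjusted p = 0.153). The groups overlapped for both. LINC00707 (log2 fold change 0.28 ± 0.15), CASC9 (0.26 ± 0.21) and a chromosome 22 row named only by its position (0.04 ± 0.16) were not called either. These small changes turned negative under library totals for RP11-785H5.1 (-0.19), CASC9 (-0.01) and the chromosome 22 row (-0.19).

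The largest rise in the set was that of LINC01133 (chr1:159961218-159984750, plus strand), a spliced lincRNA studied in several human carcinomas. It was at 16.4, 32.2 and 55.8 CPM in BCLAF1-depleted libraries, against 6.74, 7.44 and 5.97 CPM in control libraries (log2 fold change 2.37 ± 0.36, adjusted p = 0.00132). The groups did not overlap, and replicate 3 was the highest depleted library. LUCAT1, named for lung cancer and known in human cells as a target of the oxidative stress factor NRF2, was at 15.3, 31.8 and 36.7 CPM in BCLAF1-depleted libraries, against 9.12, 11.3 and 10.4 CPM in control libraries (log2 fold change 1.44 ± 0.27, adjusted p = 0.00376). GENCODE release 29 types it antisense, and its body (chr5:91054834-91314547, minus strand) overlaps that of ADGRV1 on the opposite strand. ADGRV1, a very large adhesion receptor gene, was low and fell, at 0.285, 0.176 and 0.216 CPM in BCLAF1-depleted libraries, against 0.543, 0.699 and 0.603 CPM in control libraries (log2 fold change -1.43 ± 0.36, adjusted p = 0.0126). Without control replicate 2 ADGRV1, listed as GPR98 in the deposited table, was not called, with an adjusted p of 0.0622. ADGRV1 passed the low-count filter through its control libraries, so its fall carries that limit.

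BCYRN1 (BC200; chr2:47335315-47335514, plus strand), a primate RNA of 200 bases that RNA polymerase III transcribes and that dampens translation in neurons, was at 29.8, 50.1 and 106 CPM in BCLAF1-depleted libraries, against 15.9, 14.3 and 26.3 CPM in control libraries (log2 fold change 1.72 ± 0.40, adjusted p = 0.00979). It is not polyadenylated and begins with an Alu sequence that has many near copies in the genome, so its count is uncertain. LL22NC03-2H8.5 was at 23.7, 41.0 and 91.1 CPM in BCLAF1-depleted libraries, against 13.7, 14.4 and 14.0 CPM in control libraries (log2 fold change 1.88 ± 0.38, adjusted p = 0.00533). Both leaned on BCLAF1-depleted replicate 3, the library with the largest mitochondrial share: without it the log2 fold changes were 1.08 for BCYRN1 and 1.201 for LL22NC03-2H8.5, and both stayed called.

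RP11-703G6.1, named LINC02503 in GENCODE release 29, was at 12.1, 29.5 and 41.6 CPM in BCLAF1-depleted libraries, against 6.49, 7.33 and 6.86 CPM in control libraries (log2 fold change 2.01 ± 0.35, adjusted p = 0.00274). RP11-498C9.15 was at 7.61, 17.9 and 18.1 CPM in BCLAF1-depleted libraries, against 4.05, 3.83 and 3.804 CPM in control libraries (log2 fold change 1.90 ± 0.29, adjusted p = 0.00139), and 29.2% of its exon bases overlap another lincRNA on the opposite strand. Neither had overlapping groups. AC004951.6 was at 23.1, 49.4 and 42.6 CPM in BCLAF1-depleted libraries, against 11.1, 13.4 and 12.8 CPM in control libraries (log2 fold change 1.62 ± 0.24, adjusted p = 0.00125). Its exons share 21.8% of their bases with the opposite strand of SPDYE1, a member of a multigene family, so its count is uncertain. C10orf91 was at 17.7, 23.1 and 27.6 CPM in BCLAF1-depleted libraries, against 7.11, 7.58 and 8.36 CPM in control libraries (log2 fold change 1.57 ± 0.17, adjusted p = 0.000233). LINC00337, which shares exon bases with the opposite strand of ICMT, was at 1.995, 4.22 and 5.42 CPM in BCLAF1-depleted libraries, against 1.13, 1.56 and 1.31 CPM in control libraries (log2 fold change 1.54 ± 0.33, adjusted p = 0.0068). All 3 had depleted libraries above every control, and none of these RNAs has a well-known role.

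CTC-444N24.8 and CTC-444N24.11 are 1-exon lincRNAs 41567 bases apart on the plus strand of chromosome 19, among zinc finger genes, and both rose. CTC-444N24.8 was at 2.65, 3.61 and 4.31 CPM in BCLAF1-depleted libraries, against 1.61, 1.35 and 0.748 CPM in control libraries (log2 fold change 1.51 ± 0.29, adjusted p = 0.00433). CTC-444N24.11 was at 6.53, 9.74 and 9.31 CPM in BCLAF1-depleted libraries, against 2.85, 3.86 and 4.03 CPM in control libraries (log2 fold change 1.25 ± 0.20, adjusted p = 0.00194), and was named after its values were seen. The nearest coding gene of the first, ZNF805, was not called (log2 fold change 0.06 ± 0.27).

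**Figure D3:**
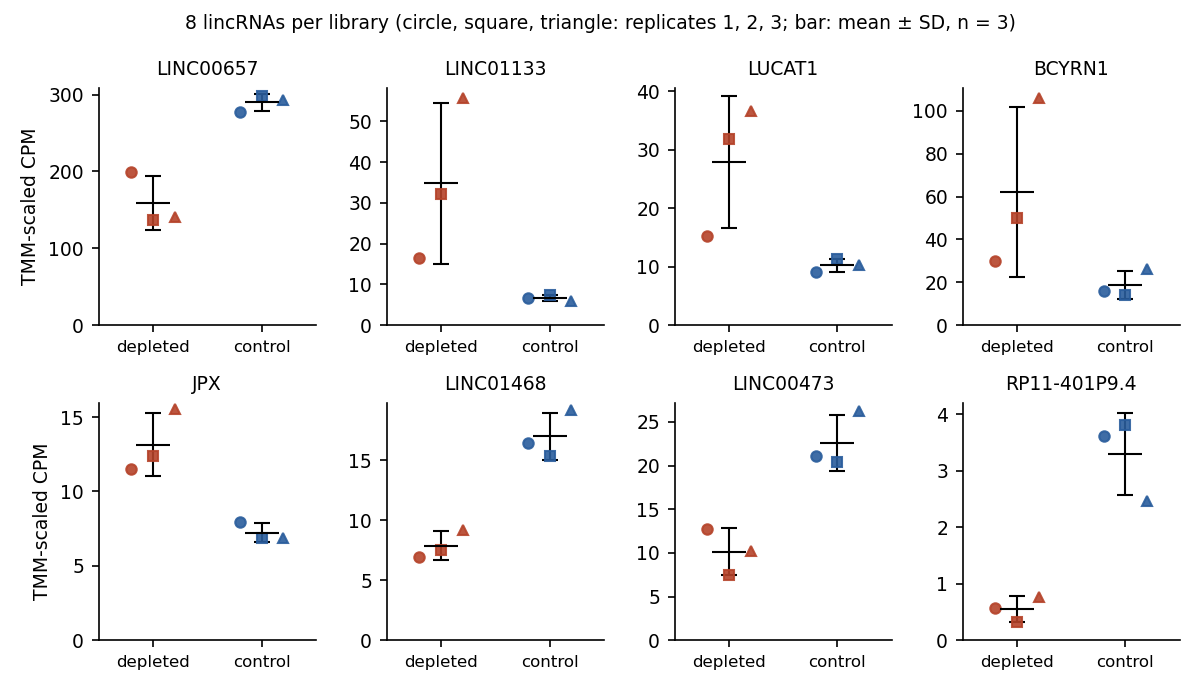
TMM-scaled CPM of 8 lincRNAs in each library, BCLAF1-depleted on the left and control on the right of each panel, with symbols for replicates 1 to 3 and bars for the mean ± SD (n = 3). LINC01133, LUCAT1, BCYRN1 and JPX are higher in every depleted library than in any control, and LINC00657, LINC01468, LINC00473 and RP11-401P9.4 are lower.

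The largest fall was that of RP11-401P9.4, a chromosome 16 row that did not match GENCODE release 29 by identifier. It was at 0.570, 0.323 and 0.770 CPM in BCLAF1-depleted libraries, against 3.62, 3.81 and 2.47 CPM in control libraries (log2 fold change -2.57 ± 0.31, adjusted p = 0.000409). As its mean sits just above the level of the rule, it is a member through its control libraries. RP11-54O7.17 was at 0.684, 0.909 and 1.23 CPM in BCLAF1-depleted libraries, against 3.37, 2.75 and 3.93 CPM in control libraries (log2 fold change -1.83 ± 0.26, adjusted p = 0.000884). RP1-27K12.2, whose body overlaps GCLC on the same strand with 13.2% of its exon bases shared, was at 1.51, 1.14 and 1.33 CPM in BCLAF1-depleted libraries, against 3.98, 3.65 and 3.41 CPM in control libraries (log2 fold change -1.47 ± 0.19, adjusted p = 0.000649). GCLC, the catalytic subunit of the first enzyme of glutathione synthesis, was not called (log2 fold change 0.37 ± 0.16). The control values of each lincRNA all lay above the depleted values.

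LINC00473, a lincRNA induced by cAMP signalling and studied in human lung tumours lacking LKB1, as A549 cells do, was at 12.8, 7.42 and 10.2 CPM in BCLAF1-depleted libraries, against 21.1, 20.4 and 26.3 CPM in control libraries (log2 fold change -1.16 ± 0.19, adjusted p = 0.00229). LINC01468, now LNCAROD, was at 6.93, 7.51 and 9.21 CPM in BCLAF1-depleted libraries, against 16.4, 15.4 and 19.2 CPM in control libraries (log2 fold change -1.11 ± 0.15, adjusted p = 0.000838). Both were lower in all 3 depleted libraries than in any control. AC083843.1 was at 1.11, 0.997 and 1.36 CPM in BCLAF1-depleted libraries, against 3.17, 2.59 and 2.95 CPM in control libraries (log2 fold change -1.33 ± 0.21, adjusted p = 0.0017), and RP1-60O19.1, now LINC02532, was at 1.71, 1.44 and 1.51 CPM in BCLAF1-depleted libraries, against 3.26, 3.79 and 4.24 CPM in control libraries (log2 fold change -1.28 ± 0.19, adjusted p = 0.00134). RP11-332H14.2 was at 1.995, 1.52 and 1.94 CPM in BCLAF1-depleted libraries, against 3.30, 3.68 and 3.43 CPM in control libraries (log2 fold change -0.93 ± 0.19, adjusted p = 0.00508). These 3 are of unknown role, and their depleted values also lay below every control. All 3 are members through their control libraries.

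CH17-360D5.3 and CH17-360D5.2 moved in opposite directions, and the first lies within the body of the second, on the same strand of chromosome 10, with no shared exon. CH17-360D5.3 was at 4.82, 3.17 and 3.94 CPM in BCLAF1-depleted libraries, against 7.63, 7.49 and 7.38 CPM in control libraries (log2 fold change -0.91 ± 0.17, adjusted p = 0.00405). CH17-360D5.2, named after its values were seen, was at 20.8, 32.5 and 36.1 CPM in BCLAF1-depleted libraries, against 12.6, 13.8 and 13.5 CPM in control libraries (log2 fold change 1.16 ± 0.19, adjusted p = 0.00194). All depleted libraries lay below the controls for the first and above them for the second. The locus lies in a duplicated region, so reads may be split between near copies and both counts are uncertain.

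Of the 16 members on a list of well-studied long noncoding RNAs and microRNA hosts, 8 were called higher and 3 lower (median log2 fold change 0.35), against 17.8% and 18.0% of all tested genes. The 3 lower were NORAD, LINC00473 and CRNDE. JPX, an activator of XIST in mice, was at 11.5, 12.4 and 15.5 CPM in BCLAF1-depleted libraries, against 7.94, 6.88 and 6.88 CPM in control libraries (log2 fold change 0.86 ± 0.15, adjusted p = 0.00306). FTX, its neighbour on the X chromosome and likewise part of the X inactivation centre, was at 3.08, 3.46 and 1.79 CPM in BCLAF1-depleted libraries, against 1.63, 1.49 and 1.23 CPM in control libraries (log2 fold change 0.94 ± 0.26, adjusted p = 0.0207). The groups were apart for both, but 10580 exon bases, 78.0% of JPX and 37.1% of FTX, overlap on opposite strands, so the reads of the pair cannot be told apart with certainty. The FTX call was lost without BCLAF1-depleted replicate 2 or control replicate 2 or 3 (adjusted p = 0.0626 to 0.0876), and under library totals (adjusted p = 0.0846).

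CCAT1, a lincRNA upstream of MYC studied in colon cancer, was at 5.47, 3.14 and 5.02 CPM in BCLAF1-depleted libraries, against 2.10, 2.39 and 1.93 CPM in control libraries (log2 fold change 1.08 ± 0.23, adjusted p = 0.00616). LINC00152, also called CYTOR, has a near-identical copy on the same chromosome, so its count is uncertain. It was at 3.53, 4.90 and 4.31 CPM in BCLAF1-depleted libraries, against 2.38, 2.41 and 3.31 CPM in control libraries (log2 fold change 0.65 ± 0.20, adjusted p = 0.0304). TP53TG1, named as a p53 target, was at 6.56, 14.0 and 8.38 CPM in BCLAF1-depleted libraries, against 6.31, 5.73 and 5.59 CPM in control libraries (log2 fold change 0.72 ± 0.25, adjusted p = 0.0439). No depleted library overlapped the controls here, but for TP53TG1 the highest depleted library was replicate 2, and replicate 1 lay just above the highest control. The CYTOR call was lost without BCLAF1-depleted replicate 2 or 3 or control replicate 1 or 2 (adjusted p = 0.0605 to 0.126), and under library totals (adjusted p = 0.176). The TP53TG1 call was lost without BCLAF1-depleted replicate 2 or 3 or control replicate 1, 2 or 3 (adjusted p = 0.0571 to 0.136), after the GC and length correction (adjusted p = 0.227) under library totals (adjusted p = 0.166) and with limma-voom (adjusted p = 0.0617), and without BCLAF1-depleted replicate 2 its log2 fold change was 0.34.

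CRNDE, a lincRNA raised in many human tumours, was at 1.57, 2.05 and 0.925 CPM in BCLAF1-depleted libraries, against 2.72, 2.73 and 2.79 CPM in control libraries (log2 fold change -0.85 ± 0.26, adjusted p = 0.0294). Its call was lost without control replicate 1, 2 or 3 (adjusted p = 0.0779 to 0.086), and after the GC and length correction (adjusted p = 0.096). SFTA1P, a transcribed pseudogene of the surfactant family, was at 10.9, 18.3 and 17.0 CPM in BCLAF1-depleted libraries, against 13.8, 16.2 and 14.7 CPM in control libraries (log2 fold change 0.05 ± 0.19, adjusted p = 0.858), and its direction turned to -0.20 under library totals and -0.27 after the GC and length correction. MIAT was at 1.51, 2.82 and 1.88 CPM in BCLAF1-depleted libraries, against 1.74, 2.68 and 2.25 CPM in control libraries (log2 fold change -0.10 ± 0.27, adjusted p = 0.782). The groups overlapped for SFTA1P and MIAT, and neither was called.

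Among the microRNA hosts, MIR4458HG was at 3.82, 5.04 and 6.93 CPM in BCLAF1-depleted libraries, against 3.26, 2.71 and 3.39 CPM in control libraries (log2 fold change 0.75 ± 0.22, adjusted p = 0.0259). Its call was lost without BCLAF1-depleted replicate 2 or 3 or control replicate 1, 2 or 3 (adjusted p = 0.0614 to 0.102), and under library totals (adjusted p = 0.0899). MIRLET7BHG, host of let-7a and let-7b, was at 7.33, 10.03 and 8.04 CPM in BCLAF1-depleted libraries, against 8.12, 9.27 and 8.94 CPM in control libraries (log2 fold change -0.05 ± 0.15, adjusted p = 0.814). MIR22HG, host of miR-22, was at 24.7, 25.7 and 36.4 CPM in BCLAF1-depleted libraries, against 31.0, 33.6 and 32.7 CPM in control libraries (log2 fold change -0.17 ± 0.16, adjusted p = 0.426). The groups of both overlapped. Hosts named after their values were seen were LINC00969, host of miR-570, which fell (log2 fold change -0.57 ± 0.12, adjusted p = 0.00646), and 3 that were not called: CTD-3252C9.4, host of miR-23a, miR-27a and miR-24-2 (0.44 ± 0.17, adjusted p = 0.073), RP11-631N16.2 (-0.43 ± 0.17, adjusted p = 0.0733) and C1orf132 (0.37 ± 0.18, adjusted p = 0.135). The hosts with the let-7 seed were 1 called higher and 2 not called.

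Other members with a described role, also named after their values were seen, were RP11-554I8.2 and RP3-510D11.2. RP11-554I8.2 is LINP1, which takes part in repair of DNA breaks by end joining, and was at 24.3, 29.5 and 23.3 CPM in BCLAF1-depleted libraries, against 10.95, 12.0 and 8.71 CPM in control libraries (log2 fold change 1.29 ± 0.16, adjusted p = 0.000402). RP3-510D11.2, LNCTAM34A, which starts beside miR-34a, a p53 target, was at 3.56, 5.45 and 5.24 CPM in BCLAF1-depleted libraries, against 2.26, 1.78 and 2.27 CPM in control libraries (log2 fold change 1.17 ± 0.21, adjusted p = 0.00321). Depleted libraries lay above every control for both RP11-554I8.2 and RP3-510D11.2. Of the exon bases of RP3-510D11.2, 25.9% overlap the lincRNA MIR34AHG on the opposite strand, so its count is uncertain.

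The balance of calls differed along transcript length, a difference that was not tested. Exon lengths (the union of a gene's exons) ran from 200 to 28487 bases with a median of 2582. Among the 63 shortest, up to 1843 bases, 25 were called higher and 2 lower (median log2 fold change 0.35), against 17.8% and 18.0% of all tested genes. Among the 63 of middle length 23 were called higher and 6 lower (median 0.36). Among the 64 longest, from 3306 bases, 14 were called higher and 13 lower (median 0.13). After a per-library correction for GC content and length, fitted over all genes, the counts were 14 higher and 7 lower, 18 and 9, and 19 and 9 from the shortest to the longest group. The whole set then had 52 called higher and 27 lower, against 18.1% and 15.9% of all tested genes, and a median of 0.15 against 0.03. Of the calls before correction, 47 of 63 higher and 19 of 23 lower remained.

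**Figure D4:**
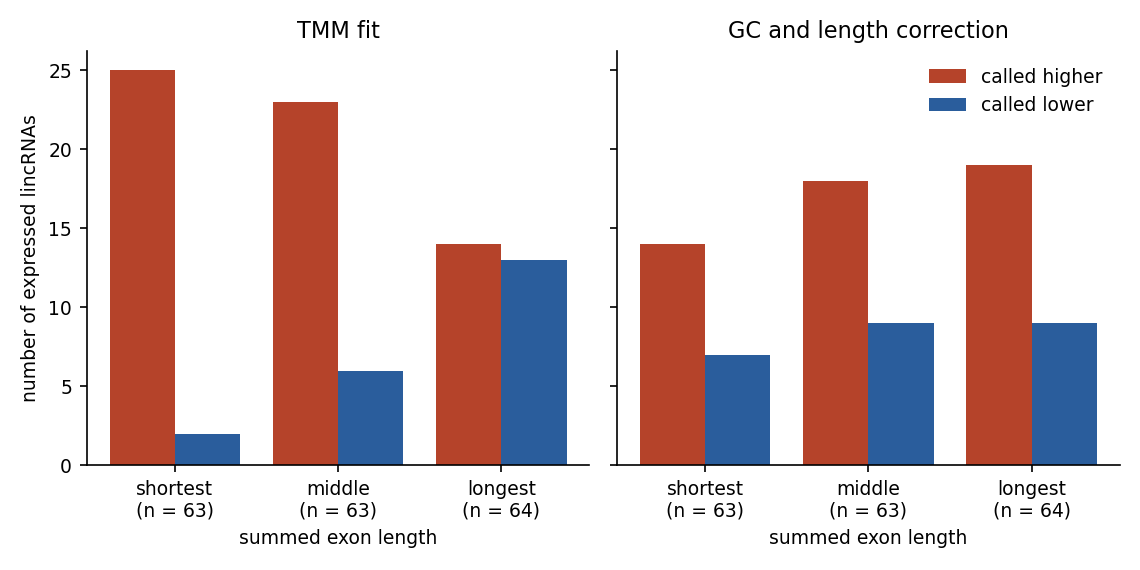
Numbers of expressed lincRNAs called higher and lower in BCLAF1-depleted over control libraries, in the shortest, middle and longest group by summed exon length, with TMM scaling alone (left) and with the GC and length correction (right). Without correction the shortest group has 25 higher and 2 lower and the longest 14 and 13, whereas with it the groups have 14 and 7, 18 and 9, and 19 and 9.

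By exon number the counts were as follows, to be read beside 17.8% called higher and 18.0% lower of all tested genes. Of 54 lincRNAs with 1 exon in every transcript 14 were called higher and 6 lower (median log2 fold change 0.23), and of 136 with more exons 48 were called higher and 15 lower (median 0.29). LincRNAs with no exon overlap numbered 118, with 38 called higher and 15 lower (median 0.30), and those with an opposite-strand exon overlap 58, with 21 and 4 (median 0.30). The 12 whose body overlaps a coding gene on the same strand included 2 called lower. By distance from the nearest coding gene, 13 of 38 beyond 50 kb were called higher and 4 lower, and of 76 within 1 kb or overlapping 25 were called higher and 7 lower. After the GC and length correction the counts were 15 and 6 beyond 50 kb and 14 and 10 within 1 kb or overlapping. All tested genes then had 18.1% higher and 15.9% lower. Under library totals they were 8 and 4 beyond 50 kb and 11 and 9 within 1 kb or overlapping, against 8.07% and 23.0%. None of these differences between groups of members was tested.

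The nearest coding gene was tested for 157 of the lincRNAs (148 distinct genes), and more pairs held a coding gene called lower than one called higher. In these pairs 48 lincRNAs were called higher and 18 lower. The coding gene was called higher in 15 pairs and lower in 48 (median log2 fold change -0.20), against 17.1% and 20.3% of all tested protein-coding rows (median -0.02), with some coding genes counted in more than 1 pair, SAMD11 in 3 of them. Both members were called in 26 pairs: 6 pairs rose together, 6 fell together, and in 14 the lincRNA rose and the coding gene fell. Over the 157 pairs the log2 fold changes had a Pearson correlation of 0.14 and a Spearman correlation of 0.12 across pairs, which share libraries and, in places, a neighbour. Among the 35 pairs with overlapping gene bodies the correlations were -0.36 and -0.32, and among the 44 head-to-head pairs 0.31 and 0.20, with 5 pairs rising together and 4 in which the lincRNA rose and the coding gene fell. Some pairs are in both of these groups. Of all 47 head-to-head lincRNAs, 17 were called higher and 4 lower, against 17.8% and 18.0% of all tested genes. After the GC and length correction the counts were 7 and 7, against 18.1% and 15.9%. Under library totals they were 5 and 5, against 8.07% and 23.0%.

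**Figure D5:**
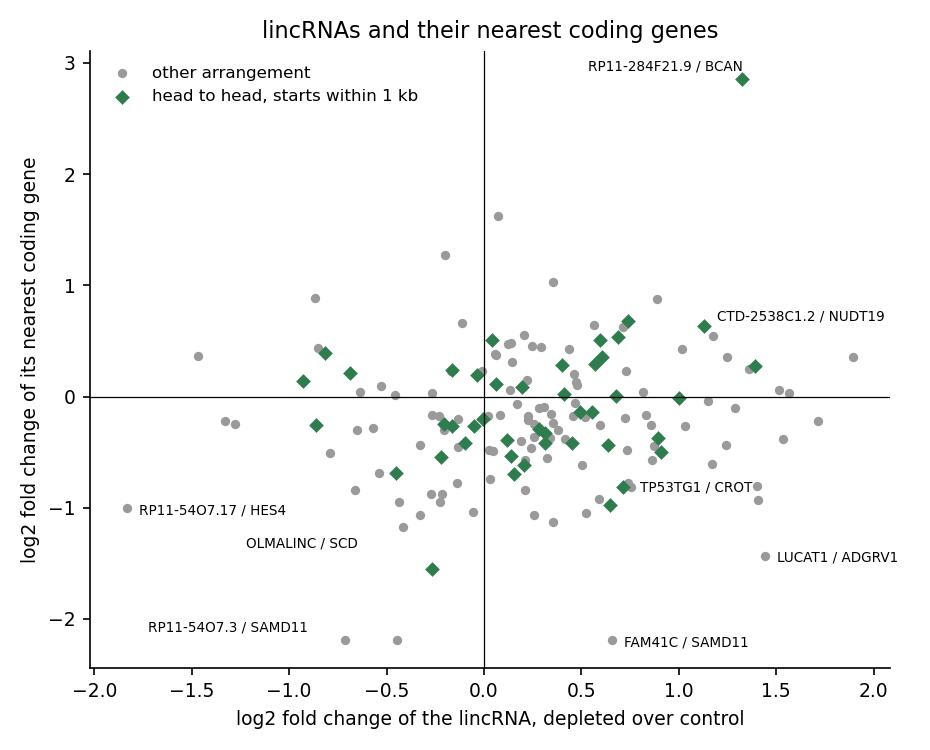
Log2 fold change (BCLAF1-depleted over control) of each lincRNA against that of its nearest coding gene, for 157 pairs, with diamonds for the 44 head-to-head pairs. Pairs in the lower right, such as LUCAT1 with ADGRV1 and TP53TG1 with CROT, have a higher lincRNA and a lower coding gene, and Pearson's correlation over all pairs is 0.14.

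The head-to-head pairs that rose together, named here with their coding genes after values were seen, were RP11-284F21.9 with BCAN, MNX1-AS1 with MNX1, RP11-37B2.1 with RIPK2, IQCH-AS1 with C15orf61 and CTD-2538C1.2 with NUDT19. RP11-284F21.9 was at 27.5, 40.1 and 26.2 CPM in BCLAF1-depleted libraries, against 13.5, 12.8 and 11.02 CPM in control libraries (log2 fold change 1.33 ± 0.18, adjusted p = 0.000693). BCAN, brevican, a proteoglycan of brain matrix, was near the counting floor, at 0.342, 0.469 and 0.524 CPM in BCLAF1-depleted libraries, against 0.0679, 0.0451 and 0.0624 CPM in control libraries (log2 fold change 2.86 ± 0.47, adjusted p = 0.00209). Its control values were at about 3 counts or fewer in a library, a level that could not be told from 0. BCAN passed the low-count filter only through its depleted libraries, so its rise, and that of the pair, carries that limit. CTD-2538C1.2, whose promoter is printed above, was at 1.88, 3.93 and 3.54 CPM in BCLAF1-depleted libraries, against 1.15, 1.38 and 1.73 CPM in control libraries (log2 fold change 1.13 ± 0.29, adjusted p = 0.0142). NUDT19, known in mouse as a coenzyme A hydrolase of peroxisomes, was at 16.3, 19.003 and 15.7 CPM in BCLAF1-depleted libraries, against 9.59, 10.03 and 13.31 CPM in control libraries (log2 fold change 0.63 ± 0.16, adjusted p = 0.0127). CTD-2538C1.2 was higher in each depleted library than in any control, and it is a member through its depleted libraries. Its call was lost without BCLAF1-depleted replicate 2 or control replicate 1 or 2 (adjusted p = 0.0505 to 0.0646), and that of NUDT19 without control replicate 1 or 2 (adjusted p = 0.0673 to 0.0708) and under library totals (adjusted p = 0.148). The MNX1-AS1 call was lost without BCLAF1-depleted replicate 2 or 3 or control replicate 1, 2 or 3 (adjusted p = 0.0741 to 0.127), that of RP11-37B2.1 without BCLAF1-depleted replicate 2 or 3 or control replicate 1, 2 or 3 (adjusted p = 0.0528 to 0.102), and that of IQCH-AS1 without BCLAF1-depleted replicate 3 or control replicate 1, 2 or 3 (adjusted p = 0.0843 to 0.119). Without BCLAF1-depleted replicate 3 the log2 fold change of IQCH-AS1 was 0.43. None of these 3 lincRNAs was called under library totals, nor were MNX1, RIPK2 and C15orf61 (adjusted p = 0.281, 0.211 and 0.195), and after the GC and length correction MNX1-AS1 was not called (log2 fold change 0.21, adjusted p = 0.283). The MNX1 call was lost without BCLAF1-depleted replicate 2 or 3 or control replicate 1, 2 or 3 (adjusted p = 0.0556 to 0.11), that of RIPK2 without control replicate 1 or 2 (adjusted p = 0.0687 to 0.0713), and that of C15orf61 without BCLAF1-depleted replicate 2 or control replicate 1 or 3 (adjusted p = 0.132 to 0.157).

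The head-to-head pairs that moved apart were RP11-166P13.3 with AKAP1, TP53TG1 with CROT, RP11-350N15.5 with NSD3 and LINC01534 with ZNF567. CROT, the carnitine acyltransferase of peroxisomes, was at 4.50, 3.40 and 2.87 CPM in BCLAF1-depleted libraries, against 6.58, 6.65 and 5.76 CPM in control libraries (log2 fold change -0.82 ± 0.19, adjusted p = 0.00937), lower in each depleted library than in any control, while TP53TG1 across the 148 bases printed above was higher in each. RP11-166P13.3 was at 9.86, 14.5 and 20.8 CPM in BCLAF1-depleted libraries, against 8.49, 8.21 and 7.42 CPM in control libraries (log2 fold change 0.91 ± 0.23, adjusted p = 0.0141). AKAP1, an anchor of protein kinase A on mitochondria, was at 98.7, 81.3 and 90.7 CPM in BCLAF1-depleted libraries, against 130.1, 124 and 129 CPM in control libraries (log2 fold change -0.50 ± 0.12, adjusted p = 0.0114). Without BCLAF1-depleted replicate 3 the log2 fold change of RP11-166P13.3 was 0.60, and after the GC and length correction its adjusted p was 0.0732. Its call was lost without control replicate 3 (adjusted p = 0.0624), and that of AKAP1 without control replicate 1, 2 or 3 (adjusted p = 0.0514 to 0.0629). NSD3, listed as WHSC1L1, was not called after that correction (log2 fold change -0.08, adjusted p = 0.549), and its call was lost without BCLAF1-depleted replicate 2 or control replicate 1, 2 or 3 (adjusted p = 0.0605 to 0.141). The RP11-350N15.5 call was lost without BCLAF1-depleted replicate 2 or 3 or control replicate 1, 2 or 3 (adjusted p = 0.0584 to 0.131), and that of LINC01534 without BCLAF1-depleted replicate 2 or control replicate 2 or 3 (adjusted p = 0.0818 to 0.129). After the correction neither of these was called (adjusted p = 0.138 and 0.153), nor was TP53TG1 (adjusted p = 0.227). None of the pairs that moved apart thus kept both calls after it. Under library totals RP11-350N15.5 and LINC01534 were not called (adjusted p = 0.0832 and 0.189), nor was TP53TG1 (adjusted p = 0.166).

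A stretch near the short-arm end of chromosome 1 held several members that moved with, and against, their neighbours. RP11-54O7.3 (chr1:916865-921016, minus strand) was at 3.62, 5.54 and 5.55 CPM in BCLAF1-depleted libraries, against 8.58, 7.15 and 8.34 CPM in control libraries (log2 fold change -0.71 ± 0.19, adjusted p = 0.0162). SAMD11, the coding gene 2912 bases away on the other strand, was at 18.1, 22.8 and 22.7 CPM in BCLAF1-depleted libraries, against 92.5, 96.9 and 101 CPM in control libraries (log2 fold change -2.19 ± 0.13, adjusted p = 8.26e-06). RP11-54O7.17, described above, lies 911 bases from HES4, a Notch-pathway repressor, which was at 16.3, 21.4 and 12.97 CPM in BCLAF1-depleted libraries, against 34.4, 33.4 and 34.0 CPM in control libraries (log2 fold change -1.01 ± 0.17, adjusted p = 0.00229). All of these were lower in every depleted library than in any control. RP11-54O7.1 between FAM41C and SAMD11 was not called (log2 fold change -0.45 ± 0.20, adjusted p = 0.108). The RP11-54O7.3 call was lost without control replicate 1 or 3 (adjusted p = 0.0612 to 0.0661). FAM41C, 47025 bases from SAMD11, was at 2.59, 3.58 and 2.87 CPM in BCLAF1-depleted libraries, against 2.24, 1.58 and 1.91 CPM in control libraries (log2 fold change 0.66 ± 0.21, adjusted p = 0.0354), and its call was lost without BCLAF1-depleted replicate 2 or 3 or control replicate 1, 2 or 3 (adjusted p = 0.0517 to 0.151), after the GC and length correction (adjusted p = 0.12) and under library totals (adjusted p = 0.189). FAM41C is a member through its depleted libraries.

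OLMALINC, a lincRNA near SCD that has been tied to SCD expression in human liver cells, was at 9.26, 10.9 and 10.1 CPM in BCLAF1-depleted libraries, against 14.6, 13.01 and 12.8 CPM in control libraries (log2 fold change -0.42 ± 0.13, adjusted p = 0.0314). SCD, the stearoyl-CoA desaturase that makes oleate, was at 249.8, 177 and 183 CPM in BCLAF1-depleted libraries, against 451, 456 and 467 CPM in control libraries (log2 fold change -1.17 ± 0.16, adjusted p = 0.00079). Both were lower in all depleted libraries. After the GC and length correction OLMALINC was not called (log2 fold change -0.21, adjusted p = 0.252), and its call was lost without control replicate 1, 2 or 3 (adjusted p = 0.0741 to 0.153).

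A list of RNA decay factors was mostly nuclear but also held XRN1, DIS3L and the nonsense-mediated decay factors UPF1, SMG1 and SMG6. Of this list 24 were tested, 9 were called higher and 6 lower, against 17.8% and 18.0% of all tested genes (median log2 fold change of the list 0.16). The 9 higher were 7 exosome subunits (EXOSC1, EXOSC4, EXOSC5, EXOSC6, EXOSC7, EXOSC8 and EXOSC9), the exosome-associated MPHOSPH6, and PABPN1, the nuclear poly(A)-binding protein. EXOSC2, EXOSC3, EXOSC10 and DIS3, also of the exosome, were not called (log2 fold changes 0.13, 0.22, -0.12 and -0.14). Under library totals EXOSC1, EXOSC7, EXOSC8, MPHOSPH6 and PABPN1 were not called either (adjusted p = 0.106 to 0.206). EXOSC5, a core subunit of the exosome ring, was at 29.2, 37.9 and 39.4 CPM in BCLAF1-depleted libraries, against 17.2, 16.8 and 15.8 CPM in control libraries (log2 fold change 1.10 ± 0.14, adjusted p = 0.000512). EXOSC6, also of the ring, was at 37.7, 50.9 and 58.7 CPM in BCLAF1-depleted libraries, against 24.8, 23.2 and 29.6 CPM in control libraries (log2 fold change 0.93 ± 0.17, adjusted p = 0.00356). The groups did not overlap for either. EXOSC4 (log2 fold change 0.77 ± 0.13) and EXOSC9 (0.73 ± 0.17) followed. The 6 lower were the helicase SKIV2L2 (MTR4), the adaptor RBM7, the exonucleases XRN1 and XRN2, and UPF1 and SMG1 of nonsense-mediated decay. Under library totals 4 were called higher and 6 lower, against 8.07% and 23.0% of all tested genes, and after the GC and length correction 8 and 2, against 18.1% and 15.9%.

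Of the termination and 3′-end processing factors, 27 were tested, 1 was called higher and 6 lower (median log2 fold change -0.14), against 17.8% and 18.0% of all tested genes. The 6 lower, 22.2% of the list, are near that background. Under library totals again 1 was called higher and 6 lower, against 8.07% and 23.0%, and after the GC and length correction 2 and 3, against 18.1% and 15.9%. INTS1, a core subunit of the Integrator complex, was at 83.6, 76.7 and 68.3 CPM in BCLAF1-depleted libraries, against 144, 136 and 141 CPM in control libraries (log2 fold change -0.88 ± 0.12, adjusted p = 0.000916). ASUN, the Integrator subunit INTS13, was at 113, 104 and 198 CPM in BCLAF1-depleted libraries, against 78.2, 76.7 and 77.4 CPM in control libraries (log2 fold change 0.84 ± 0.22, adjusted p = 0.0154), and without BCLAF1-depleted replicate 3 its log2 fold change was 0.48. Depleted and control libraries were apart for both, with replicate 3 the highest for ASUN. CPSF2 (log2 fold change -0.58 ± 0.13) and INTS12 (-0.52 ± 0.17) were also lower. The ASUN call was lost without control replicate 1, 2 or 3 (adjusted p = 0.0515 to 0.0595), and that of INTS12 without BCLAF1-depleted replicate 2 or 3 or control replicate 1, 2 or 3 (adjusted p = 0.0776 to 0.114). CPSF2 was not called after the GC and length correction (adjusted p = 0.0635). Neither list was compared with other lists.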

How the data were processed

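Poly(A)-selected, strand-preserving RNA-seq libraries of 3 BCLAF1-depleted and 3 control A549 samples were measured. The deposited tables hold counts per gene, whole and not normalized, and FPKM per gene as the authors computed them, with the gene length they used not stated. Per the submitters' processing notes, bcl2fastq, TopHat2, edgeR and GRCh38 were used; the counting tool, its strand setting and the annotation release are not stated there. Groups follow the sample labels, and 0 sample columns were left unused. A listed gene withheld from reporting is not reported here. The lincRNA members and the gene lists were chosen with earlier results of these data known.

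Counts were tested with edgeR 4.0.16 (R 4.3.3): TMM scaling, filterByExpr (minimum count 10, minimum total 15), quasi-likelihood F-test, Benjamini-Hochberg over 15907 genes, threshold 0.05. The common biological coefficient of variation was 15.3%. The procedure was tested on simulated data. The GC and length correction fitted, per library, a smooth of each over genes with mgcv 1.9.3, using GENCODE release 29. Alternatives were DESeq2 1.42.0, limma 3.58.1 (voom, and log2(FPKM + 1) or log2(FPKM + 0.1)), other scalings and filters, a replicate block, leaving out each library, and other levels of the rule. Precision follows library totals: 3 counts correspond to 0.0683 to 0.0898 CPM, counting error only. Named were the 8 highest members, the 10 largest called rises and falls without overlap, well-studied members and MIR hosts, 3 rows either side of the level, nearest coding genes of the largest changes, and up to 4 called genes per list.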

Additional observations from a re-analysis of the deposited data

How the results depend on the processing

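Under library totals only, 37 members and 1283 genes of all tested were called higher and the members' median log2 fold change was 0.028; signs turned for RP11-785H5.1 -0.19, the chromosome 22 row -0.19, CASC9 -0.014 and SFTA1P -0.20. With log2(FPKM + 1), 33 members were called higher and 36 lower, 1131 genes higher and 4453 lower, and the median was -0.031; signs turned for RP11-785H5.1 -0.22, the chromosome 22 row -0.026, CASC9 -0.090, LINC00707 -0.027 and SFTA1P -0.26. With log2(FPKM + 0.1), the counts were 35 and 37 members and 1126 and 4381 genes, and the median was -0.066; signs turned for RP11-785H5.1 -0.25, the chromosome 22 row -0.14, CASC9 -0.094, LINC00707 -0.032 and SFTA1P -0.28. The GC and length correction turned the signs of SFTA1P -0.27, HCG11 0.072 and MIAT 0.035, and with a replicate block those of SFTA1P -0.29, HCG11 0.072 and MIAT 0.016. At a level of 1 CPM 104 of 365 members were called higher (28.5%) and 33 lower (9.04%). At 5 CPM 40 of 104 were called higher (38.5%) and 13 lower (12.5%). Of all tested genes 17.8% were called higher and 18.0% lower. Without LINC00657 the share of counts was 0.0193 percentage points higher in BCLAF1-depleted libraries. The cause of these shifts was not tested.

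Leaving out 1 library at a time, all genes called higher ranged from 1383 to 3741 and lower from 1549 to 4195, and members from 38 to 83 and from 15 to 28. Over these fits log2 fold changes ran -0.0086 to 0.071 for RP11-785H5.1, -0.11 to 0.16 for the chromosome 22 row, -0.084 to 0.39 for CASC9, -0.097 to 0.23 for SFTA1P, -0.39 to 0.063 for MIAT and -0.19 to 0.025 for MIRLET7BHG, none called with all libraries. The difference in share ran -0.00229 to 0.00632 percentage points.

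Same-numbered replicates of the groups correlated by 0.0429, 0.0668 and 0.162 in their deviations, so the numbers were not taken to pair the samples; with the replicate block 65 members were called higher and 28 lower, and 2886 and 3121 of all genes. DESeq2 called 66 and 25 members and voom 61 and 23. Levels under 0.0683 to 0.0898 CPM, which are 3 counts in a library, could not be told from 0.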

Other observations

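Below the level of 2 CPM, some lincRNAs, chosen after their values were seen, also differed between groups. Among them DGCR9 passed the low-count filter only through its control libraries, and PSMB8-AS1 and RP11-267L5.1 only through their depleted libraries. The differences of these RNAs carry that limit. DGCR9, of the chromosome 22 region deleted in DiGeorge syndrome, was at 0.228, 0.205 and 0.0616 CPM in BCLAF1-depleted libraries, against 0.973, 1.01 and 1.46 CPM in control libraries (log2 fold change -2.76 ± 0.42, adjusted p = 0.0014). PSMB8-AS1, antisense to the immunoproteasome gene PSMB8, was at 0.713, 1.17 and 1.02 CPM in BCLAF1-depleted libraries, against 0.158, 0.113 and 0.146 CPM in control libraries (log2 fold change 2.77 ± 0.37, adjusted p = 0.000707). PGM5P2, a pseudogene transcript with near copies whose reads may be shared, was at 0.485, 2.14 and 2.19 CPM in BCLAF1-depleted libraries, against 0.362, 0.293 and 0.374 CPM in control libraries (log2 fold change 2.21 ± 0.51, adjusted p = 0.00926). RP11-267L5.1 had 15, 25 and 20 counts in BCLAF1-depleted libraries and 0, 0 and 0 counts in control libraries, where a count of 0 allows up to 3 counts per library.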
